A study of Mus musculus with 8 samples.

Results

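The nuclear factor I (NFI) family was followed in mouse cells labelled as apical papilla cells. By their labels they kept or lost the last copy of Ctnnb1, which encodes beta-catenin. The family members were taken by name as Nfia, Nfib, Nfic and Nfix. They are 4 of the 56748 genes in the count table, and all 4 were measured and tested. Bulk RNA was sequenced from 8 libraries of tdTomato-positive cells sorted from mandibular molars at postnatal day 10, after a tamoxifen pulse at day 3. There were 4 libraries of conditional knockouts (cKO, Ctnnb1 -/-) and 4 of conditional heterozygotes (cHet, Ctnnb1 +/-), so the comparison group had itself lost 1 copy of Ctnnb1. The labels name neither the Cre driver nor the deleted exons, and they do not say whether a library came from 1 animal or from a pool. They call the cells CXCL12+ apical papilla cells, give the tissue as dental pulp and mention dental follicle cells in the dissociation step. All p-values therefore refer to library-to-library spread, part or all of which may be technical.

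NFI proteins are transcription factors that bind DNA as dimers, through a conserved amino-terminal domain, at a palindrome of inverted TTGGC repeats. The family member tied to teeth is Nfic. Mice that lack Nfic form crowns but fail to form normal molar roots, with disturbed odontoblast differentiation. The other members are best known outside the tooth: Nfia for glial development, Nfib for lung and brain maturation, and Nfix for brain, skeletal and fetal muscle development.

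Nfic and Nfix both stood about 2.1-fold higher in cKO libraries, with no overlap between the groups, though scaling to mesenchyme markers brought them to log2 values of 0.087 and -0.038. In contrast, Nfia and Nfib overlapped between the groups and were not called. At an adjusted p under 0.05 over all tested genes, 1 member of 4 was called higher, Nfix, where 1.08% of the 21508 tested genes were called higher and 0.0558% lower. Groups that did not overlap, in either direction, occurred for 2 of 4 members and for 10.1% of all tested genes. Levels are counts scaled to library size with trimmed-mean (TMM) factors, in the unit CPM.

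Nfic, the member required for roots, had 129, 115, 160 and 179 CPM in cKO7, cKO9, cKO14 and cKO15, against 80.7, 41.2, 85.6 and 64.4 CPM in cHet8, cHet11, cHet12 and cHet14. Every cKO library was above every cHet library, and cHet11 was the lowest of all. The means were 146 ± 29.1 CPM in cKO and 68.0 ± 20.0 CPM in cHet (SD, n = 4 each). The log2 fold change was 1.10 (SE 0.24, edgeR adjusted p = 0.0755), so Nfic did not pass the threshold over all genes. DESeq2 called it (log2 1.09, adjusted p = 0.00278), as did limma voom with quality weights (log2 1.33, adjusted p = 0.0172), in fits that called 5.78% and 5.96% of their tested genes higher in cKO. Without cKO9, edgeR called it too (log2 1.20, adjusted p = 0.0452), in a fit that called 3.67% of its tested genes higher.

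Nfix rose in cKO, although its log2 value was -0.038 when libraries were scaled to mesenchyme markers. It had 139, 131, 161 and 187 CPM in cKO7, cKO9, cKO14 and cKO15, against 75.3, 57.4, 88.7 and 77.7 CPM in cHet8, cHet11, cHet12 and cHet14. The order of libraries within cKO was the same as for Nfic, with cKO15 highest and cKO9 lowest. The means were 154 ± 24.8 CPM in cKO and 74.8 ± 13.0 CPM in cHet (SD, n = 4 each). The log2 fold change was 1.05 (SE 0.17, edgeR adjusted p = 0.0377), and 7.71% of all tested genes had a log2 fold change at least as large. An unadjusted p at least as small was found for 0.465% of tested genes. Its biological coefficient of variation was 0.195, against a median of 0.40 over all tested genes. Leaving out any single library but cKO9 ended the edgeR call (7 of 8 fits), with adjusted p up to 0.147 and log2 values from 0.94 to 1.14.

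Nfia had 21.6, 45.3, 27.4 and 25.6 CPM in cKO7, cKO9, cKO14 and cKO15, against 29.2, 25.9, 20.1 and 26.0 CPM in cHet8, cHet11, cHet12 and cHet14. Its means were 30.0 ± 10.5 CPM in cKO and 25.3 ± 3.80 CPM in cHet (SD, n = 4 each), a log2 fold change of 0.24 (SE 0.24, edgeR adjusted p = 0.676). The difference of the means rested on cKO9, the only cKO library above all cHet libraries, and without it the log2 value was -0.027 (adjusted p = 0.949). The annotated gene E130114P18Rik overlaps Nfia on the opposite strand. Its counts came to 10.1% of those of Nfia, and since the kit does not mark strand, reads in the part they share cannot be told apart. Overlapping genes of Nfib, Nfic and Nfix that are in the table had counts of at most 0.807% of their member's total.

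Nfib had 96.2, 195, 124 and 83.2 CPM in cKO7, cKO9, cKO14 and cKO15, against 163, 142, 121 and 159 CPM in cHet8, cHet11, cHet12 and cHet14. Its lowest 2 libraries were cKO and so was its highest, cKO9. The means were 124 ± 49.8 CPM in cKO and 146 ± 19.3 CPM in cHet (SD, n = 4 each), a log2 fold change of -0.23 (SE 0.26, edgeR adjusted p = 0.712). Without cKO9 the log2 value was -0.53, with an unadjusted p of 0.0154 and an adjusted p of 0.122 by edgeR. In that fit 2286 of 22213 tested genes were lower at an unadjusted p under 0.05.

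**Figure D1:**
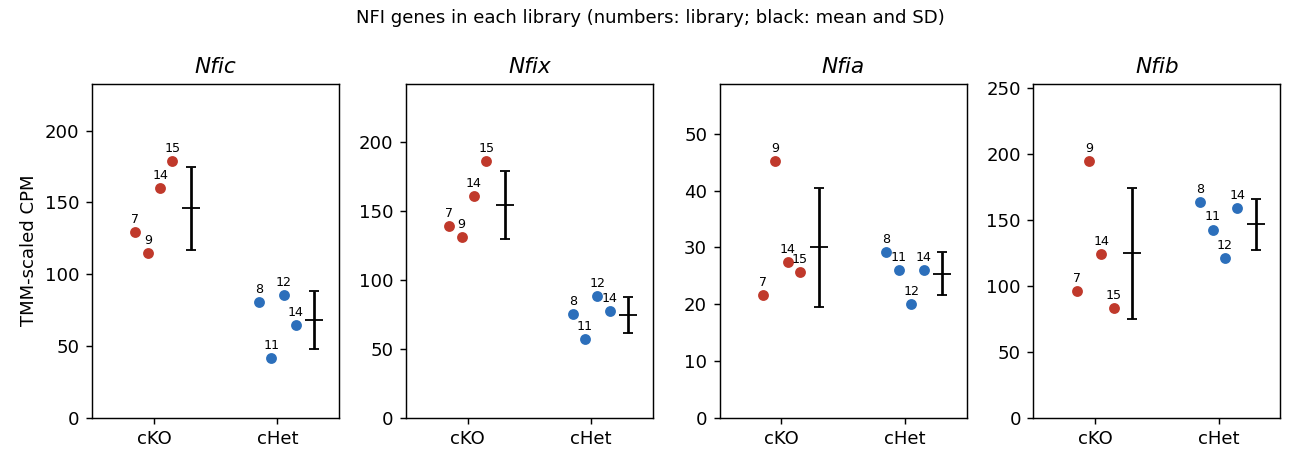
Level of each NFI gene in TMM-scaled CPM (vertical axes from 0) in the 4 cKO libraries (red) and the 4 cHet libraries (blue). Numbers are library numbers, and black marks give mean and SD. The groups do not overlap for Nfic and Nfix, while for Nfia and Nfib the cKO9 library stands above all others.

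Members were also compared library by library. Over the 8 libraries log2 CPM of Nfic and Nfix had a Pearson correlation of 0.975, which was 0.983 within cKO and 0.93 within cHet. Nfia and Nfib had 0.679 over the 8 libraries, 0.912 within cKO and 0.948 within cHet. The other 4 correlations over 8 libraries ran from -0.541 for Nfib and Nfix to 0.124 for Nfia and Nfix. These are descriptions without a test, and the points share library, depth and cell mixture.

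Whether members changed unequally was tested on the log2 difference between them in each library, by an exact two-sided permutation test over the 70 ways to split 8 libraries. Its smallest p is 0.0286. The log2 level of Nfia minus that of Nfib averaged -2.03 in cKO and -2.53 in cHet, a shift of 0.50 (SE 0.12). No cKO library overlapped a cHet library in this difference (exact p = 0.0286). Nfic minus Nfib shifted by 1.44 (exact p = 0.0571) and Nfix minus Nfib by 1.35 (exact p = 0.0571). Against Nfia the shifts were 0.93 for Nfic and 0.85 for Nfix (exact p = 0.0857 each). Nfix minus Nfic stood at 0.092 in cKO and 0.17 in cHet, a shift of -0.083 (SE 0.13, exact p = 0.571). Over the 6 pairs none passed after Benjamini-Hochberg adjustment, with an adjusted p of 0.103 for 5 of them and 0.571 for Nfix minus Nfic. At this number of libraries at least 4 of the 6 pairs would have had to reach the smallest p before any could pass, so the adjusted test could hardly have called a pair.

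Summed over the family, NFI transcripts came to 386, 486, 472 and 474 CPM in cKO7, cKO9, cKO14 and cKO15, against 349, 267, 315 and 327 CPM in cHet8, cHet11, cHet12 and cHet14. Every cKO library was again above every cHet library. Nfic and Nfix together made up 66.3 ± 11.2% of NFI CPM in cKO and 45.1 ± 7.62% in cHet (SD, n = 4 each). The share of Nfib was 27.2 ± 9.39% in cKO and 46.8 ± 6.28% in cHet. In cKO9 the make-up lay within the cHet range, with 50.6% from Nfic and Nfix.

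**Figure D2:**
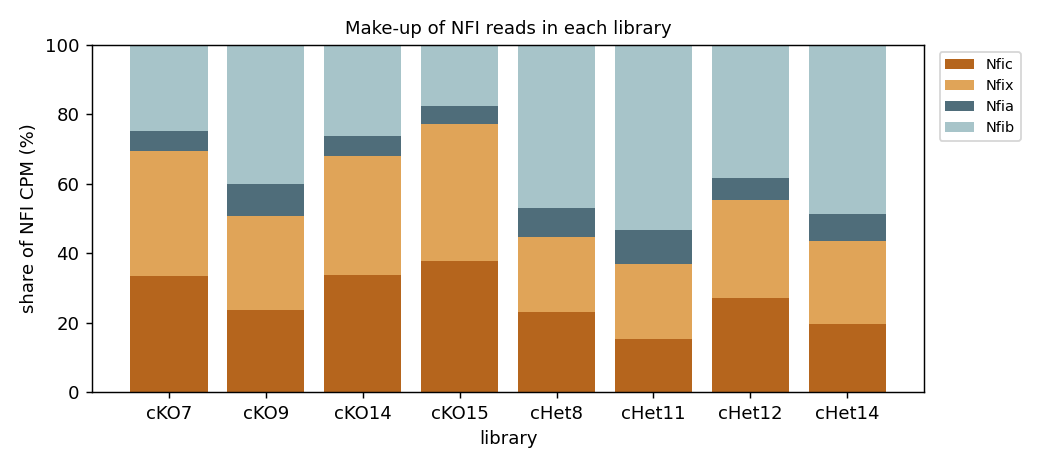
Share of each NFI gene in the summed NFI CPM (vertical axis, percent) of each library, cKO libraries first. Shares are of reads, not corrected for length, and Nfic and Nfix together take 50.6% to 77.1% in cKO and 36.9% to 55.3% in cHet.

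Those shares are of reads, in which a longer transcript counts for more, and levels of different genes compare only per length. Divided by the union of annotated exons, Nfic stood at 22.0 ± 4.39 CPM per kb in cKO and 10.2 ± 3.02 in cHet, and Nfix at 21.0 ± 3.38 in cKO and 10.2 ± 1.76 in cHet (SD, n = 4 each). Nfib stood at 8.32 ± 3.33 CPM per kb in cKO and 9.79 ± 1.29 in cHet. Nfia was lowest, with 2.75 ± 0.962 CPM per kb in cKO and 2.32 ± 0.349 in cHet. In cKO the order of levels was therefore Nfic, Nfix, Nfib and Nfia, with overlapping ranges for Nfic and Nfix and none for Nfix against Nfib or Nfib against Nfia. In cHet the ranges of Nfic, Nfix and Nfib overlapped. The order depends on the length used: with the longest coding transcript Nfix led in cKO (28.2 CPM per kb) and Nfib led in cHet (16.1 CPM per kb). As shares of the summed CPM per kb of exon union, Nfic and Nfix together made up 79.3 ± 8.45% in cKO and 62.2 ± 7.20% in cHet (SD, n = 4 each).

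Beta-catenin acts on DNA through TCF and LEF factors, so the start sites of the members were read for their motif, spelled CTTTG followed by A or T at both of the next 2 bases, on either strand. RefSeq promoter windows of 300 bases (250 before to 50 after a start site, build GRCm38.p6, which is not the build of the counts) matched 3 of the 4 members with 6 windows, and Nfib had no entry. The windows that hold a match are shown, 5′ to 3′ on the gene's strand, with the match in capitals. They are chr10:81427124-81427423 (minus strand) for Nfic, chr8:84772826-84773125 (minus strand) for Nfix and chr4:97581693-97581992 (plus strand) for Nfia.
Nfic: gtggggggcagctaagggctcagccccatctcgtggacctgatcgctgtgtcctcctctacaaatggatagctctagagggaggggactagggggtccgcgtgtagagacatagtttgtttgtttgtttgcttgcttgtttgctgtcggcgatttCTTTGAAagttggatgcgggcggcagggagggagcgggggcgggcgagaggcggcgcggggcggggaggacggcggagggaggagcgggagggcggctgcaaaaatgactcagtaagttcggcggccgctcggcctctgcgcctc
Nfix: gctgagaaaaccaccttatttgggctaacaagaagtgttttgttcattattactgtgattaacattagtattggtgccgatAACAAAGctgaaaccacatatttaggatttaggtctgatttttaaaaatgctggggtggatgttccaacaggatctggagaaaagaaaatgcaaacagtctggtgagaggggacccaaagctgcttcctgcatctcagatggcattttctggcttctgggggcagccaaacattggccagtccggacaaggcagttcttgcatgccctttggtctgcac
Nfia: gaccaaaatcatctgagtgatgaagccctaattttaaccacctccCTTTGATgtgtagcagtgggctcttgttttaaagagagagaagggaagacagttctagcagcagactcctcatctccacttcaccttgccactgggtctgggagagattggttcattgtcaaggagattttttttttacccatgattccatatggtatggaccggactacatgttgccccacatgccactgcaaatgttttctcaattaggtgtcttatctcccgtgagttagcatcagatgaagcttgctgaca
The match began 95 bases before the start site in Nfic, 169 before it in Nfix, where it lies on the other strand, and 205 before it in Nfia. The other windows of Nfix had none. Of all 32851 windows of this length, 16.9% hold such a match, and 5121 of 27025 genes have 1 in some window. A match was present for Nfia, which was not called, as well as for Nfic and Nfix. No member's window held the NFI palindrome (TTGGC, any 5 bases and GCCAA), which 12 of the 32851 windows hold. A match is a run of letters and not a shown binding site.

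The deleted gene and the cell mixture were checked beside these values. Total counts lay between 44444033 and 50051392 per library. Ctnnb1 stood at 277 ± 39.2 CPM in cKO and 257 ± 40.2 CPM in cHet (SD, n = 4 each, edgeR adjusted p = 0.785). Ctnnb1 was therefore not lower in cKO (log2 0.11, SE 0.15), and its level does not show the loss named by the labels. The count is a total over the whole gene, and the reason for this level was not tested. Cxcl12 stood at 826 CPM in cKO and 149 CPM in cHet (log2 2.47, edgeR adjusted p = 0.0497). All 9 apical papilla markers, Cxcl12 among them, were detected above 1 CPM. Their score (mean log2 CPM) was 8.04 in cKO and 6.26 in cHet (exact p = 0.0286). Of the 9, only Tac1 was lower in cKO, at 8.53 CPM against 26.8 CPM in cHet (log2 -1.65, edgeR adjusted p = 0.108). The 12 general mesenchyme markers scored 8.92 in cKO and 7.89 in cHet (exact p = 0.0571), with sums of 13680 to 26880 CPM in cKO and 3780 to 12240 CPM in cHet. Markers of olfactory sensory neurons were abundant in a sort of tooth cells, at 6118 to 7683 CPM in cKO and 7059 to 12730 CPM in cHet over 10 genes, with none near 0 (score 8.68 in cKO and 9.10 in cHet, exact p = 0.0857). The 7 ameloblast markers, of enamel-forming epithelium, came to 4712 to 8553 CPM in cKO and 2314 to 11460 CPM in cHet (score 7.28 in cKO and 7.06 in cHet, exact p = 0.657). The 6 macrophage and leukocyte markers came to 103 to 412 CPM in cKO and 136 to 7420 CPM in cHet (exact p = 0.114). Over the 14 marker lists the smallest adjusted p was 0.40, but 9 of the 14 would have had to reach the smallest possible exact p of 0.0286 before any could pass, so the adjusted values say little. In bulk libraries, fewer cells of a type and less RNA per cell cannot be told apart.

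Levels of Nfic and Nfix were set beside the mesenchyme score of each library. In cKO15, with the highest score, both were at their highest, and cHet11, with the lowest mesenchyme score of 6.92, was lowest in both Nfic and Nfix. The groups cross in that score: cKO9 had 8.38, below cHet8 with 8.56. In the apical papilla score they do not cross, with 7.30 in cKO9 and 6.98 in cHet8. Over the 8 libraries log2 CPM of Nfic had a Pearson correlation of 0.969 with the apical papilla score and 0.962 with the mesenchyme score. That of Nfix had 0.938 and 0.885. These were the highest among the 14 marker lists. Next in size were those with the olfactory neuron score, -0.795 for Nfic and -0.745 for Nfix. With the mesenchyme score Nfia had -0.0065 and Nfib -0.528. Their largest in size among the 14 lists were -0.529 with macrophages and leukocytes for Nfia and -0.714 with osteoblasts for Nfib. All are descriptions over points that share library, depth and the difference between the genotypes. Once the mesenchyme score was a term of the edgeR fit, the log2 fold change was 0.45 for Nfic (unadjusted p = 0.0115, adjusted p = 0.446) and 0.67 for Nfix (unadjusted p = 0.0033, adjusted p = 0.301). With the olfactory score as the term it was 0.74 for Nfic (adjusted p = 0.783) and 0.88 for Nfix (adjusted p = 0.546). When libraries were instead scaled to the mesenchyme markers, Nfic had a log2 value of 0.087 and Nfix one of -0.038, while the median of all tested genes was -1.14. These values are relative to the mean of 12 markers that differed among themselves, from a log2 value of -1.04 for Dcn and -0.66 for Lum to 2.04 for Pdgfra in the main fit. Nfic and Nfix lay 1.23 and 1.10 above the median gene. Scaling moves all genes of a library alike, and these distances were close to those in the main fit, 1.13 and 1.07. On the same scale Nfia stood at -0.80 and Nfib at -1.24.

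**Figure D3:**
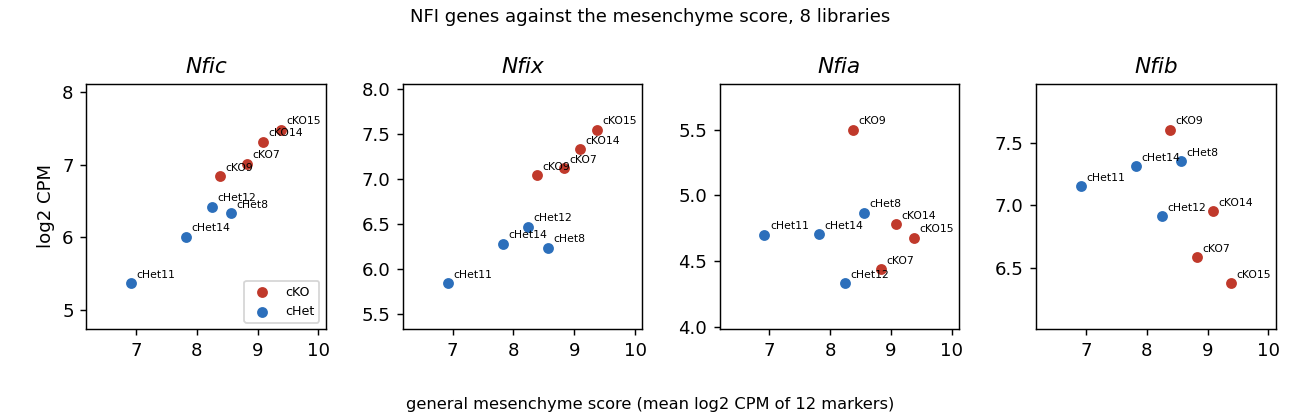
Log2 CPM of each NFI gene (vertical axes, not from 0) against the general mesenchyme score (horizontal axis, mean log2 CPM of 12 markers) in 4 cKO (red) and 4 cHet (blue) libraries. Nfic and Nfix are highest in cKO15, the library with the highest score, and lowest in cHet11, with the lowest. The groups cross along the horizontal axis, at cKO9 (8.38) and cHet8 (8.56).

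Genes tied to NFIC in teeth or in cell culture were described next, as were regulators of root formation and NFI targets known from other tissues. All 3 lists were chosen with earlier results of these data known. Their shares and medians beside all tested genes are therefore descriptions and no test. Of 18 NFIC-linked genes none was called by edgeR in either direction, where 1.08% of all tested genes were called higher and 0.0558% lower. At an unadjusted p under 0.05, 6 were higher and 1 lower, against 10.8% and 6.33% of all tested genes. DESeq2 called 3 higher and 0 lower, against 5.78% and 2.28% of its tested genes, and voom 4 higher and 0 lower, against 5.96% and 1.26%. The median log2 fold change was 0.48, beside -0.027 over all tested genes. Sp7, the osteoblast factor osterix and a known NFIC target, stood at 161 ± 69.1 CPM in cKO and 58.6 ± 28.0 CPM in cHet (SD, n = 4 each, log2 1.46, edgeR adjusted p = 0.177). Ptch1, the Hedgehog receptor, stood at 80.8 CPM in cKO and 36.8 CPM in cHet (log2 1.14, edgeR adjusted p = 0.0697). The ubiquitin ligase gene Smurf1 had a log2 value of 0.52 (adjusted p = 0.115) and Smad2, a signal transducer of TGF-beta, 0.44 (adjusted p = 0.159). Klf4, described with NFIC upstream of dentin matrix genes, had a log2 value of 0.72 (edgeR adjusted p = 0.353). Of the dentin matrix genes, Dspp and Dmp1 had values of the other sign or near 0, and both were picked after their values were seen. Dspp, the main noncollagenous dentin protein gene, stood at 3.28 CPM in cKO and 7.72 CPM in cHet (log2 -1.23, edgeR adjusted p = 0.257), and Dmp1 at 57.9 CPM in cKO and 59.9 CPM in cHet. The groups overlapped for both, with Dspp at 1.10 to 4.91 CPM in cKO and 4.59 to 11.9 CPM in cHet. The 6 odontoblast markers, which include both, scored 5.44 in cKO and 5.17 in cHet (exact p = 0.514).

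Among 30 regulators of root formation 2 were called higher and none lower by edgeR, against 1.08% and 0.0558% of all tested genes. The list was chosen with earlier results of these data known, so such shares describe it and do not test it. Of the 30, 27 had a positive log2 value, against 47.5% of all tested genes. The median was 1.12, beside -0.027 over all tested genes. At an unadjusted p under 0.05, 20 were higher and 0 lower, against 10.8% and 6.33% of all tested genes. DESeq2 and voom each called 14 higher and 0 lower, against 5.78% and 2.28% of all genes tested by DESeq2 and 5.96% and 1.26% of those tested by voom. Bmp2, a bone morphogenetic protein ligand, stood at 772 ± 234 CPM in cKO and 70.4 ± 38.3 CPM in cHet (log2 3.45, adjusted p = 0.0328). Dlx3, a homeobox factor of odontoblasts, stood at 239 ± 85.3 CPM in cKO and 52.1 ± 19.2 CPM in cHet (log2 2.20, adjusted p = 0.0377). Sox9, a factor of skeletal progenitors, had a log2 value of 2.32 (adjusted p = 0.0526) and Osr2, a zinc finger factor that patterns the tooth row, one of 2.37 (adjusted p = 0.0561). The groups did not overlap for 13 of the 30, against 10.1% of all tested genes in either direction. Smad4, the common partner of TGF-beta and BMP signals, stood at 321 CPM in cKO and 315 CPM in cHet, and Runx2 at 40.0 CPM in cKO and 32.5 CPM in cHet. Beside this list the mesenchyme score was 1.03 higher in cKO and the apical papilla score 1.78 higher. Msx1, Dlx2 and Sox9 are both in the list and among the apical papilla markers. The part of either score in the list's values was not tested.

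Of 13 NFI targets known from neural tissue and muscle, none was called by edgeR, against 1.08% higher and 0.0558% lower of all tested genes. At an unadjusted p under 0.05, 6 were higher and 0 lower, against 10.8% and 6.33% of all tested genes. DESeq2 called 6 higher and voom 5, with 0 lower in both, against 5.78% and 5.96% of all genes called higher by these tools and 2.28% and 1.26% lower. The signs were mixed with 7 positive and 6 negative (median 0.19). The list does not separate genes that NFI factors activate from genes they repress, so its signs were not read as NFI activity. Gfap, the astrocyte filament gene that NFIA activates in brain, stood at 2.33 ± 0.612 CPM in cKO and 0.785 ± 0.275 CPM in cHet (SD, n = 4 each, log2 1.56, edgeR adjusted p = 0.102). Nfatc4 and Zcchc24 had log2 values of 1.41 and 1.42 (adjusted p = 0.121 each). Sox9 and Ezh2 are also among the root regulators. Sp7, Klf4, Gli1, Ptch1 and Tgfbr1 are in both the NFIC-linked and the root list. In all, 7 of the 54 distinct genes are in 2 of the 3 lists and count in each.

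**Figure D4:**
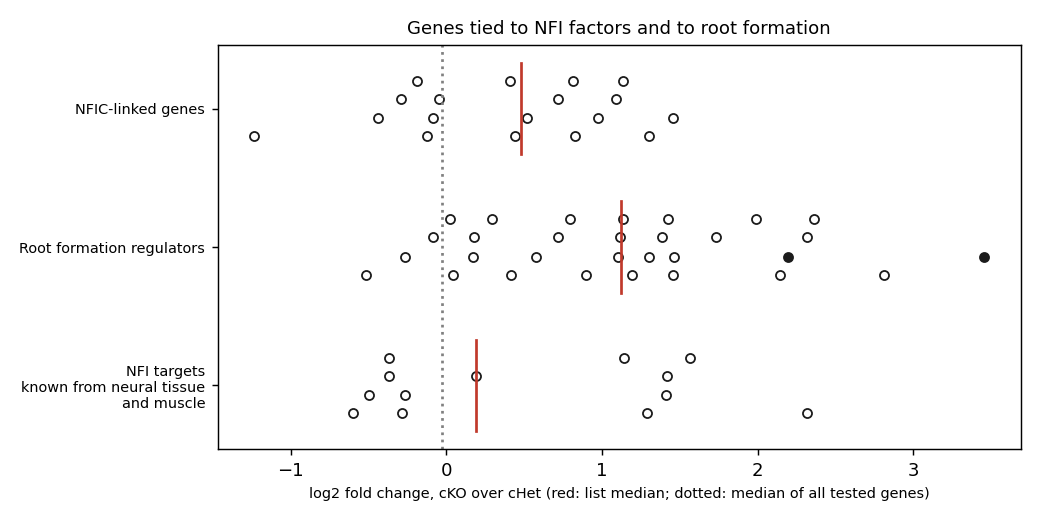
Log2 fold change, cKO over cHet, of the tested genes of the 3 lists (horizontal axis, 1 point a gene, filled where edgeR's adjusted p was under 0.05, placed at different heights only to separate them). Red lines are the list medians of 0.48, 1.12 and 0.19, and the dotted line is the median of all tested genes at -0.027.

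The genes most like each member over the 8 libraries were taken from 10838 genes whose mean reached 10 CPM. Those nearest Nfic were Abcc9, a subunit of ATP-sensitive potassium channels, Kif7, a ciliary kinesin of the Hedgehog pathway, Pam, a peptide-amidating enzyme, Kank2 and Smurf1, with Pearson correlations from 0.992 to 0.997. With group means removed the correlations were 0.970 to 0.989. As follows from being chosen for likeness to Nfic, all 5 had positive log2 values, from 0.52 for Smurf1 to 2.02 for Abcc9. None was called by edgeR. Those nearest Nfix were Zim1, an imprinted zinc finger gene, the ligand gene Wnt9a, Asap1, which acts on Arf proteins, Sdf4, a calcium-binding protein of the Golgi, and Flt4, a VEGF receptor (0.985 to 0.988). With group means removed these were 0.914 to 0.961. Of these genes Zim1 (log2 2.20, adjusted p = 0.0399) and Asap1 (log2 1.87, adjusted p = 0.0443) were called higher by edgeR, as were 1.08% of all tested genes. Those nearest Nfia were Firre, a long noncoding RNA, Sbf2, the nucleoporin gene Ahctf1, Ddi2 and Zfp41 (0.914 to 0.953). Those nearest Nfib were Zbtb18, a transcriptional repressor, Pnn, the dynein gene Dnah9, the potassium channel gene Kcna6 and Rhoq (0.945 to 0.964). No gene near Nfia or Nfib was called, with log2 values from -0.37 to 0.33. Genes chosen this way follow their member, so their fold changes are not a result apart from the member's own. The correlations rest on 8 points that share library and cell mixture, and they are descriptions without a test.

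The log2 value of Nfic was positive in all 19 other fits, and it passed in 4 of them. With scaling to mesenchyme markers it was only 0.087 (edgeR unadjusted p = 0.789). Nfix was positive in 18 of 19 and passed in 9, the exception being the scaling to mesenchyme markers. Nfia was positive in 16 and Nfib negative in 18, and neither passed in any fit. The fit without cHet11 and cKO9, chosen after seeing the data, is among the 19 and among the passes of Nfic and Nfix. All fits reuse the same libraries, so they are not independent.

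**Figure D5:**
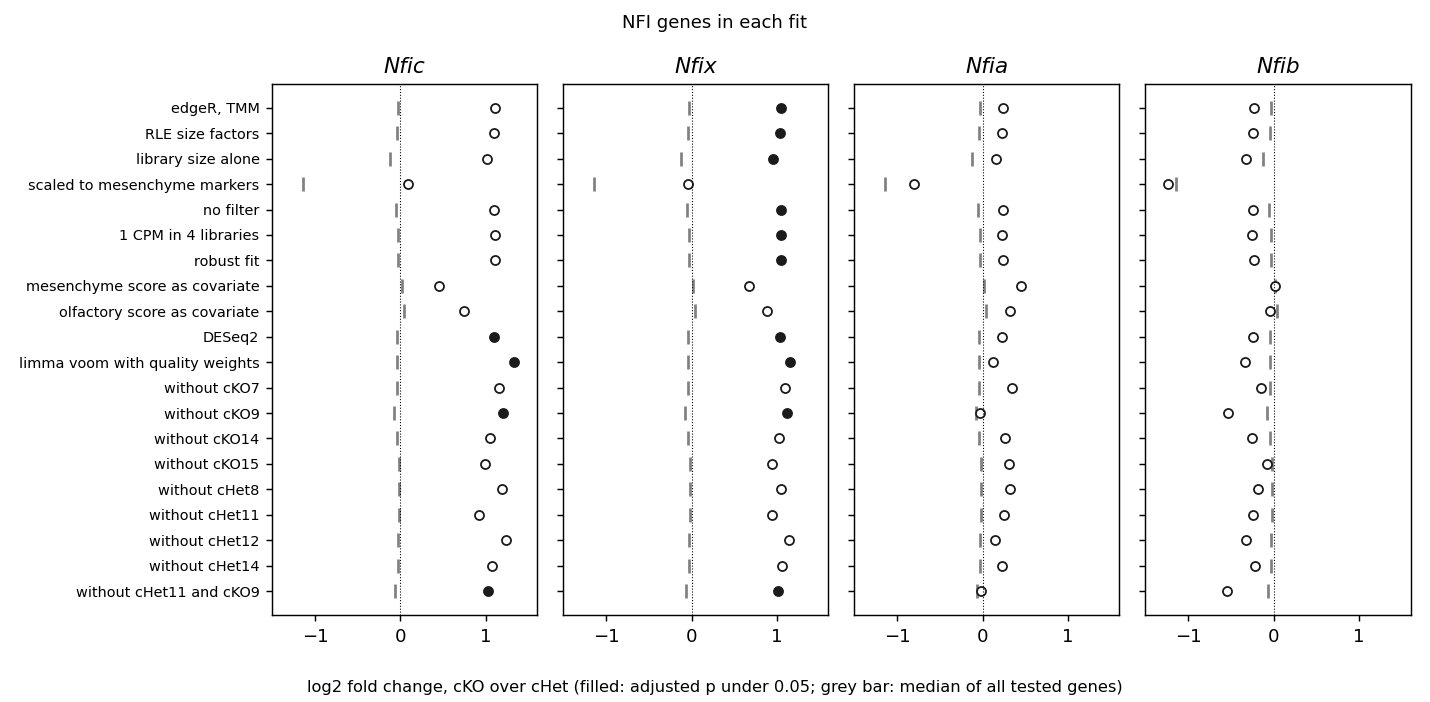
Log2 fold change of each NFI gene, cKO over cHet (horizontal axes), in the main edgeR fit and 19 others (rows). Filled points have an adjusted p under 0.05, and grey bars mark the median of all tested genes in that fit. Nfic ranges from 0.087 to 1.33 and Nfix from -0.038 to 1.15, both lowest with scaling to mesenchyme markers, where the median gene lies at -1.14.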

How the data were processed

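The deposited values are raw whole-number counts of 8 libraries. Trim Galore, STAR, GRCm39 and mm39 appear in the submitters' processing notes. The sources used here do not give the counting step, its annotation or any tool version. Per the labels' protocols, cDNA came from a SMART-Seq v4 kit, which amplifies full-length transcripts without marking strand. Columns name a group and a library number that matches no sample title, so each was assigned to its group only. Gene symbols came from a table that matched 52073 of 56748 identifiers, and each member had 1 identifier.

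Groups were compared with edgeR 4.0.16 in R 4.3.3 (TMM factors, filter by group that kept 21508 genes, quasi-likelihood F test, genotype as sole term, two-sided, Benjamini-Hochberg over all tested genes). Standard errors (SE) of log2 fold changes are approximate, the size of the change over the square root of F. Alternatives used DESeq2 1.42.0 and limma 3.58.1. Scores and member differences used log2 CPM with a prior count of 2 and exact permutation tests. Exon lengths and overlapping genes came from GENCODE M21 (GRCm38), promoters from RefSeq.

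The members, the lists and the markers were chosen with earlier results of these data known. Genes named were the members, Ctnnb1, Cxcl12, all called members and the 4 smallest p of each list, and the 5 genes nearest each member by correlation. Klf4, Dspp, Dmp1, Smad4, Runx2, Tac1, Dcn, Lum, Pdgfra and E130114P18Rik were named outside this rule, after their values were seen. Msx1, Dlx2, Ezh2, Gli1 and Tgfbr1 were named only as genes that lists or markers share.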

Additional observations from a re-analysis of the deposited data

Results flagged for a closer look

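Of 46 groups of 4 libraries examined for a value far from the others, 4 held one, and chance flags about 5% of such groups. The summed NFI level was 386 CPM in cKO7, against 472 to 486 CPM in the other cKO libraries. The other 3 were marker scores. The pericyte and smooth muscle score was 4.02 in cKO14, against 3.38 to 3.48 in the other cKO libraries. The osteoblast score was 5.29 in cHet11, against 6.34 to 6.40 in the other cHet libraries. The erythroid score was 3.44 in cHet8, against 4.12 to 4.24 in the other cHet libraries.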

How the results depend on the processing

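Precision was limited by 4 libraries a group, of which single ones moved the calls. Nfic, not called in the main fit (1.10), was called with DESeq2 (1.09), with voom (1.33) and without cHet11 and cKO9 (1.02, an omission chosen after seeing the data). Nfix, called at 1.05, was not called with the mesenchyme score (0.67) or the olfactory score (0.88) as covariate, and stood at -0.038 with libraries scaled to mesenchyme markers. That scaling also turned Nfia, to -0.80. Without cHet11 and cKO9 Nfia was -0.015, and with the mesenchyme covariate Nfib was 0.018. The other settings kept direction and call for the members.

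The main fit called 232 genes higher and 12 lower. The counts were 1386 and 547 with DESeq2, 1281 and 271 with voom, 609 and 32 without cHet11 and cKO9, 12 and 4 with the mesenchyme covariate, 1 and 0 with the olfactory covariate, and 5 and 2 with mesenchyme scaling. Lower genes numbered 5 with no filter and 7 with the robust fit. The causes were not tested.

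Leaving out 1 library gave 0 to 816 higher and 0 to 144 lower genes: 816 and 144 without cKO9, 155 and 1 without cHet8, at most 8 and 0 without cKO7, cKO15 or cHet11, and none without cKO14, cHet12 or cHet14, where 1812 to 2246 were higher and 1106 to 1189 lower at an unadjusted p under 0.05. With the olfactory covariate 456 were lower at that p. The log2 values ranged from 0.92 to 1.23 for Nfic, called only without cKO9 (1.20, adjusted p = 0.0452), from 0.94 to 1.14 for Nfix, still called without cKO9, from -0.027 to 0.35 for Nfia and from -0.53 to -0.082 for Nfib. Nfix minus Nfic ranged from -0.17 to 0.018. The other 5 differences between members kept direction and stayed above an adjusted p of 0.05, also with a prior count of 0.5.

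Marker score differences ranged from 1.47 to 2.03 for apical papilla, 0.71 to 1.26 for general mesenchyme, -0.54 to -0.30 for olfactory neurons, 0.16 to 0.71 for osteoblasts, -2.57 to -1.14 for macrophages, -0.093 to 1.32 for chondrocytes, -0.070 to 0.58 for ameloblasts, -0.83 to 1.7e-05 for endothelium and -0.34 to 0.34 for Schwann cells. The exact p of the apical papilla score stayed at 0.0286 in 5 of these fits and was 0.0571 without cKO15, cHet11 or cHet14. RLE size factors changed no score's direction or call. No paired analysis was possible because the columns carry no replicate number of the labels.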
